A study of Mus musculus with 5 samples.

Results

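The genes described here encode integrins, their ligands and the proteins that switch integrins on, as measured by RNA sequencing in mouse germinal centre light zone B cells. The set comprised 10 named genes of the 23234 in the deposited table, given by name, with earlier results of these data known. They were the integrin chains Itgal, Itgb2, Itga4, Itgb1, Itgb7 and Itgb3, the ligands Icam1 and Icam2, and the integrin activators Tln1 (talin) and Fermt3 (kindlin-3). All 10 had a row in the table, and all 10 passed the filter on low values that precedes the test.

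The comparison set 2 Csk(f/f)-labelled libraries against 3 Csk(+/+) libraries. Donor B cells of both groups carried the B1-8hi(KI/+) immunoglobulin knock-in, which gives affinity for the hapten NP, together with ERT2cre(KI/+), a Cre made active by tamoxifen, and the CD45.1/2 allelic marker. They differed at Csk, which was floxed (fl/fl in the protocol, f/f in the titles) in the first group and wild type in the other. Csk encodes a kinase that restrains the Src family kinases by phosphorylating a tyrosine in their tail. Naive donor cells were placed in C57BL/6J hosts, which received NP-CGG in alum on day 0 and tamoxifen on days 8 and 9, and NP-binding donor light zone cells were sorted from spleen on day 11. Both groups therefore received tamoxifen and carried Cre. The design text calls the libraries biological replicates. The sources used here do not give the age of the animals, the exons that are floxed or the number of animals behind each library, so p-values measure the spread between these libraries.

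Integrins are heterodimers of an alpha and a beta chain that span the membrane and bind ligands on other cells or in the matrix. In resting lymphocytes they are held in a bent, weakly binding form. Signals from antigen or chemokine receptors act through the small GTPase Rap1 to bring talin and kindlin to the beta chain tail, which opens the integrin. B cells use LFA-1 (Itgal with Itgb2) and VLA-4 (Itga4 with Itgb1) to hold on to antigen-presenting cells, follicular dendritic cells and T cells during synapse formation.

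The values were FPKM, fragments per kilobase of transcript scaled to the mapped fragments of each library. Levels can be compared between genes only roughly, because the annotation behind the transcript lengths is not given. Differences between the groups also ran with GC content, as given below. The steps between the lowest values put library depth at about 23700000 and 9600000 fragments for the Csk(f/f)-labelled libraries and about 15800000, 19500000 and 11800000 fragments for the Csk(+/+) libraries. At these depths the least abundant of the 10 genes, Itga4, rested on about 144 to 527 fragments per library. All 8 B cell markers and all 8 germinal centre markers reached 1 FPKM in at least 1 library. The T cell list summed to 61.1 to 75.9 FPKM in Csk(f/f)-labelled and 57.2 to 73.2 FPKM in Csk(+/+) libraries, mostly from Cd2, while Thy1 had 3.51 and 4.62 FPKM in Csk(f/f)-labelled and 1.86, 2.27 and 1.16 FPKM in Csk(+/+) libraries, and Cd3e and Cd3g were listed at 0 in all 5. The endothelial list summed to 18.7 to 20.5 FPKM in Csk(f/f)-labelled and 14.8 to 21.7 FPKM in Csk(+/+) libraries, mostly from Pecam1, with 5 of its 9 genes, Kdr and Tie1 among them, at 0 in all 5. The stromal and follicular dendritic cell list summed to 4.09 to 4.14 FPKM in Csk(f/f)-labelled and 3.13 to 3.59 FPKM in Csk(+/+) libraries, mostly from Mfge8, with Cxcl13 and Pdgfra at 0. The erythroid list had the highest sums of the lists of other cell types, at 686 and 270.4 FPKM in Csk(f/f)-labelled libraries and 239, 1261 and 511 FPKM in Csk(+/+) replicates 1, 2 and 3. The light zone list (Cd83, Cd86, Bcl2a1b, Nfkbia, Cd40 and Egr3) summed to 968 to 996 FPKM in Csk(f/f)-labelled and 848 to 891 FPKM in Csk(+/+) libraries, although its members Cd86 and Bcl2a1b had lower values in the Csk(f/f)-labelled libraries. The dark zone list, whose 5 measured genes include Cxcr4 and mitotic genes, summed to 164 to 174 FPKM in Csk(f/f)-labelled and 189 to 196 FPKM in Csk(+/+) libraries. Its mitotic genes Ccnb1, Aurka and Plk1 had lower values in the Csk(f/f)-labelled libraries, while the groups of Cxcr4 and Foxp1 overlapped. Cxcr4 had 65.2 and 62.8 FPKM in Csk(f/f)-labelled libraries, against 63.5, 61.5 and 58.6 FPKM in Csk(+/+) libraries. The part of all these sums in the results on integrin genes was not tested. Csk itself had 453 and 476 FPKM in the Csk(f/f)-labelled libraries, against 378, 436 and 415 FPKM in the Csk(+/+) libraries (limma adjusted p = 0.439). One value for the whole gene also counts transcript from exons that were not floxed, so these values leave the genotype unchecked, and the groups are called by their labels.

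Kindlin-3 was the most abundant of the 10 transcripts and the alpha4 chain the least. Averaged over the 5 libraries, the order of FPKM was Fermt3 (260.6), Itgb2 (146), Tln1 (137), Icam1 (93.9), Itgal (62.1), Icam2 (43.6), Itgb1 (36.4), Itgb7 (11.2), Itgb3 (8.95) and Itga4 (1.91). Fermt3 stood above Itgb2, Itgb1 above Itgb7, and Itgb3 above Itga4 with no overlap of their ranges over the 5 libraries. The ranges of the other neighbours in this order overlapped. Within libraries, Tln1 exceeded Icam1, Icam1 exceeded Itgal and Itgal exceeded Icam2 in 5 of 5, and Itgb7 exceeded Itgb3 in 4 of 5. Itgb2 exceeded Tln1 in 3 of 5 libraries and Icam2 exceeded Itgb1 in 3 of 5. Among genes above 0, Fermt3 lay at percentile 98.0 of mean FPKM, Itgb2 at 96.1 and Itga4 at 44.2.

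**Figure D1:**
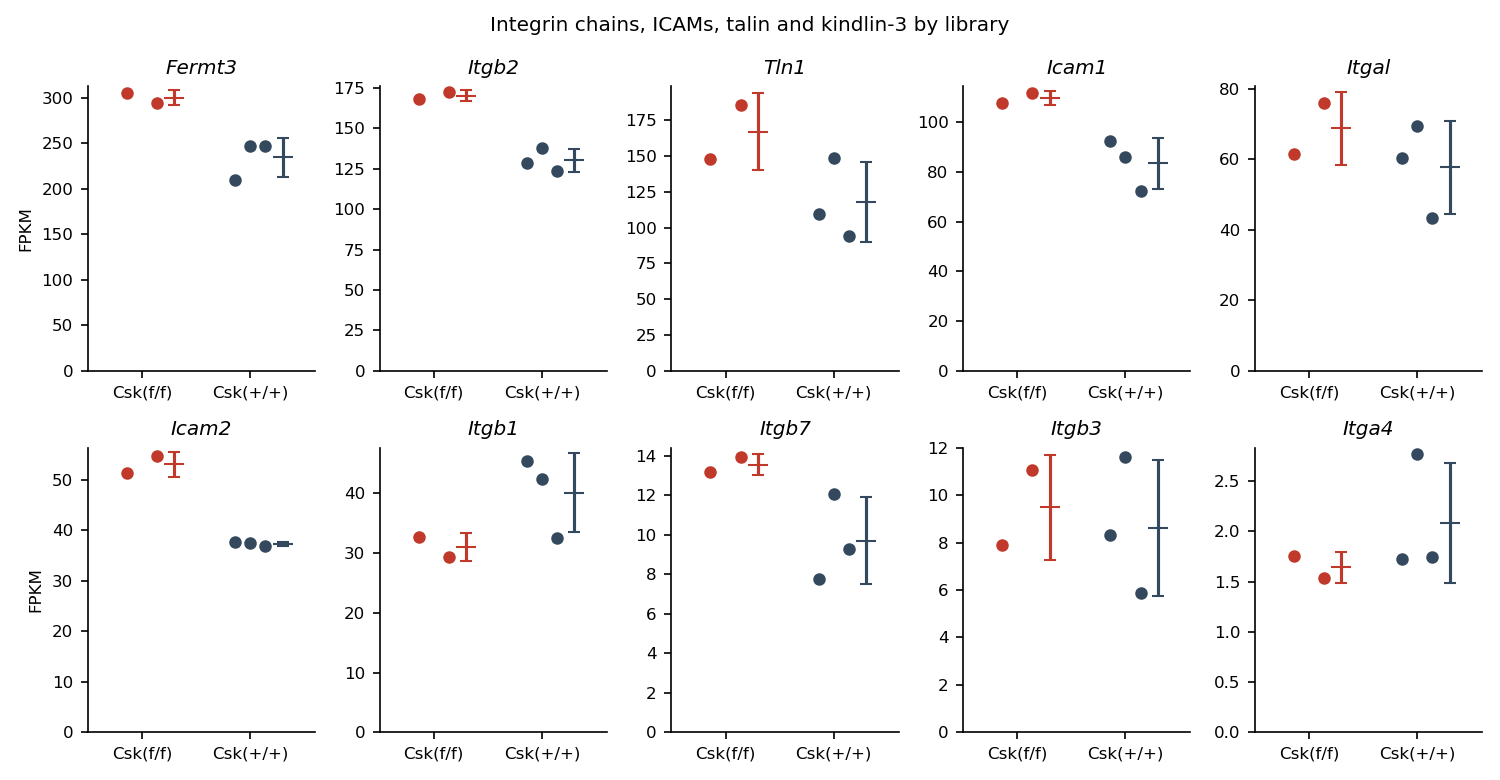
FPKM (y axis, from 0, scale set per gene) of the 10 genes in each library, with the Csk(f/f)-labelled libraries at left in red and the Csk(+/+) libraries at right in dark blue. Points are libraries and the bars beside them are the mean ± SD; Icam2 shows 51.3 and 54.7 FPKM against 36.9 to 37.6 FPKM, while the groups of Itgal, Itgb3, Itga4, Itgb1 and Tln1 overlap.

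None of the 10 genes passed the test as deposited. By limma on log2(FPKM + 1), with p-values adjusted over all 10242 genes tested, 0 of the 10 genes were higher and 0 lower at an adjusted p under 0.05, where 0.0391% of all genes tested passed as higher and 0.0391% as lower. At an unadjusted p under 0.05 the count was 5 higher (Itgb2, Icam1, Icam2, Tln1 and Fermt3) and 0 lower, where 8.07% of all genes tested were higher and 13.6% lower at that level. The groups of libraries did not overlap for 5 of the 10 (Itgb2, Itgb7, Icam1, Icam2 and Fermt3), all with the Csk(f/f)-labelled libraries higher, where 20.7% of all genes tested had such values and 24.5% the opposite. The median log2 fold change of the 10 genes was 0.37, with 8 positive and 2 negative, and that of all genes tested was -0.012.

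The ligands come first. Icam1 encodes ICAM-1, the inducible ligand of LFA-1 that NF-kB and inflammatory signals raise in many cell types, and Icam2 encodes ICAM-2, a shorter and more constitutive ligand of the same integrin. Of the 10 genes, 6 had a promoter window in the RefSeq table of build GRCm38.p6, which covers 250 bases before to 50 after the gene start. The windows of Icam1 and Itgb7 are printed because these are the genes among the 6 that both had non-overlapping groups of FPKM values and held one of the motifs searched. Capitals mark the motifs GGAAATTCC (an NF-kB site), TATAAA (the letters of a TATA box), GGGCGG (the GC box) and GAGGAAGT (a PU.1-type ETS site). Each was searched on both strands, with a reverse-strand match shown as its reverse complement. No 2 matches shared a base. The Icam1 window lies at chr9:21015690-21015989 on the plus strand and the Itgb7 window at chr15:102231886-102232185 on the minus strand.
Icam1: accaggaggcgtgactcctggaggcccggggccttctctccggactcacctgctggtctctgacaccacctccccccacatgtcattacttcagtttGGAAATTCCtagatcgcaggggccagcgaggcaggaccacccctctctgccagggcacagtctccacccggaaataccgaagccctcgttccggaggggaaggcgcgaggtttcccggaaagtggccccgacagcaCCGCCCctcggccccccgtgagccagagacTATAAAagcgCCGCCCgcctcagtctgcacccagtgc
Itgb7: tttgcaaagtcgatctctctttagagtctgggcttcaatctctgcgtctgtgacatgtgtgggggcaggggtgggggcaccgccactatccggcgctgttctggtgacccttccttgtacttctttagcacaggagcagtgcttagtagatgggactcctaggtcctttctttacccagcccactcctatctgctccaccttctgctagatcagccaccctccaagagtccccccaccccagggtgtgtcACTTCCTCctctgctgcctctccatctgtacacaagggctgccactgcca
In the Icam1 window GGAAATTCC began at position -153 from the gene start, a string that 0.317% of the 32851 promoter windows hold. TATAAA began at position 14, past the gene start used here, with 13.6% of windows holding it. GGGCGG occurred on the reverse strand at positions -17 and 24, with 35.7% of windows holding it. The Itgb7 window held GAGGAAGT on the reverse strand from position 1, as do 3.20% of windows. GGGCGG was also in the windows of Itga4 and Itgb1. Positions count the first transcribed base as 1. These matches describe the letters of the windows and nothing about binding in these cells.

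Icam2 had the smallest p of the 10 genes. It had 51.3 and 54.7 FPKM in the Csk(f/f)-labelled libraries, against 37.6, 37.6 and 36.9 FPKM in the Csk(+/+) libraries. Both Csk(f/f)-labelled libraries were above all 3 Csk(+/+) libraries, whose coefficient of variation was 1.04%. Counting error alone was estimated at up to 4.23% in a library for Icam2. A coefficient below that does not measure how alike the replicates are. The means were 53.0 ± 2.41 FPKM (SD, n = 2) and 37.3 ± 0.387 FPKM (SD, n = 3), and the log2 fold change was 0.49 ± 0.12 (SE; 95% CI 0.21 to 0.78). By limma its unadjusted p was 0.00397 and its adjusted p 0.154, which placed it at rank 264 of the genes tested. Given library weights, in which Csk(+/+) replicate 3 weighed 0.259 and the others 1.35 to 1.55, Icam2 passed with a log2 fold change of 0.49 and a limma adjusted p of 0.0390. In that fit 194 of all 10242 genes passed as higher and 477 as lower, against 4 and 4 with equal weights.

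Icam1 had 108 and 112 FPKM in the Csk(f/f)-labelled libraries, against 92.2, 85.9 and 72.3 FPKM in the Csk(+/+) libraries. The groups did not overlap, and Csk(+/+) replicate 3 was the lowest. Its log2 fold change was 0.40 ± 0.14 (SE; 95% CI 0.066 to 0.73), with a limma adjusted p of 0.194. The ratio of Icam1 to Icam2 was 2.097 and 2.04 in Csk(f/f)-labelled libraries and 2.45, 2.29 and 1.96 in the Csk(+/+) libraries. These ratios overlapped between groups, with a log2 difference of -0.098 (two-sided exact permutation test, p = 0.5).

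Of the integrins these chains can form, LFA-1 had the most abundant chains. Itgal encodes its alphaL chain, which carries the ligand-binding I domain, and Itgb2 its beta2 chain (CD18), which other leukocyte integrins share. Itgb2 had 168 and 173 FPKM in the Csk(f/f)-labelled libraries, against 129, 138 and 124 FPKM in the Csk(+/+) libraries. The groups did not overlap, and the means were 170.1 ± 3.37 FPKM (SD, n = 2) and 130.1 ± 7.24 FPKM (SD, n = 3). The log2 fold change was 0.39 ± 0.12 (SE; 95% CI 0.11 to 0.67), with a limma adjusted p of 0.173.

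Itgal had 61.5 and 76.0 FPKM in the Csk(f/f)-labelled libraries, against 60.5, 69.3 and 43.4 FPKM in the Csk(+/+) libraries. Its groups overlapped, and Csk(+/+) replicate 3 was well below the others. The log2 fold change was 0.27 ± 0.21 (SE; 95% CI -0.22 to 0.75), with a limma adjusted p of 0.461. The ratio of Itgal to Itgb2 was 0.367 and 0.441 in Csk(f/f)-labelled libraries and 0.470, 0.502 and 0.351 in the Csk(+/+) libraries, and these overlapped.

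The other alpha chains that pair with beta2 were near the bottom of the table. Itgam (CD11b) reached at most 0.158 FPKM in any library. Itgax (CD11c) had 0.309 and 0.200 FPKM in the Csk(f/f)-labelled libraries, against 0.0152, 0 and 0 FPKM in the Csk(+/+) libraries. Macrophages and neutrophils also use Itgb2. The macrophage list summed to 11.6 to 13.6 FPKM in Csk(f/f)-labelled and 2.69 to 8.62 FPKM in Csk(+/+) libraries, with 1 of its 9 measured genes, Lyz2, at 1 FPKM or more in any library and Mertk and Vsig4 at 0 throughout. The neutrophil list summed to 0 FPKM in both Csk(f/f)-labelled libraries and to 0 to 2.71 FPKM in Csk(+/+) libraries. The part of the macrophage genes in the Itgb2 and ICAM values was not tested. In sorted bulk cells, fewer cells of a type and less RNA per cell cannot be told apart.

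For VLA-4 the beta1 chain was abundant and the alpha4 chain scarce. Itga4 encodes the alpha4 chain, which binds VCAM-1 and fibronectin when joined to beta1 and MAdCAM-1 when joined to beta7, and Itgb1 encodes the beta1 chain, the common partner of many alpha chains. Itgb1 had 32.7 and 29.4 FPKM in the Csk(f/f)-labelled libraries, against 45.3, 42.3 and 32.6 FPKM in the Csk(+/+) libraries. Csk(+/+) replicate 3 lay between the Csk(f/f)-labelled libraries, so the groups overlapped. The log2 fold change was -0.35 ± 0.17 (SE; 95% CI -0.74 to 0.051), with a limma adjusted p of 0.272.

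Itga4 had 1.75 and 1.54 FPKM in the Csk(f/f)-labelled libraries, against 1.73, 2.77 and 1.74 FPKM in the Csk(+/+) libraries. The groups overlapped, with Csk(+/+) replicate 2 as the highest library. Its log2 fold change of -0.20 ± 0.22 (SE) had a limma adjusted p of 0.593, and it turned to 0.22 ± 0.22 after the correction for GC content given below. The level of Itga4 stood at 0.0537 and 0.0523 of Itgb1 in Csk(f/f)-labelled libraries and at 0.0382, 0.0655 and 0.0536 of it in the Csk(+/+) libraries.

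Itgb7 encodes the beta7 chain, whose pairing with alpha4 gives the gut-homing integrin. It had 13.2 and 13.9 FPKM in the Csk(f/f)-labelled libraries, against 7.75, 12.1 and 9.29 FPKM in the Csk(+/+) libraries. The groups did not overlap, and the gap between them was smaller than the range of the Csk(+/+) libraries. The log2 fold change was 0.46 ± 0.21 (SE; 95% CI -0.020 to 0.95), with a limma adjusted p of 0.244.

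Among 6 ratios of partner genes, 2 had groups that did not overlap, and both involve the beta7 chain. The ratio of Itgb7 to Itgb1 was 0.403 and 0.475 in Csk(f/f)-labelled libraries and 0.171, 0.286 and 0.285 in the Csk(+/+) libraries. On the log2 scale of FPKM + 1 the difference was 0.81. The ratio of Itga4 to Itgb7 was 0.133 and 0.110 in Csk(f/f)-labelled libraries and 0.223, 0.229 and 0.188 in the Csk(+/+) libraries, a log2 difference of -0.67. For both, a two-sided exact permutation test over the 10 splits gave p = 0.1, the smallest these libraries allow, and 0.3 when adjusted over the 6 ratios examined. With no value added to the FPKM the differences were 0.86 for Itgb7 over Itgb1 and -0.81 for Itga4 over Itgb7. The transcripts of both pairs differ in GC content. After the GC correction the difference was 0.24 for Itgb7 over Itgb1 (p = 0.4 by the exact permutation test) and turned to 0.060 for Itga4 over Itgb7 (p = 0.9).

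**Figure D2:**
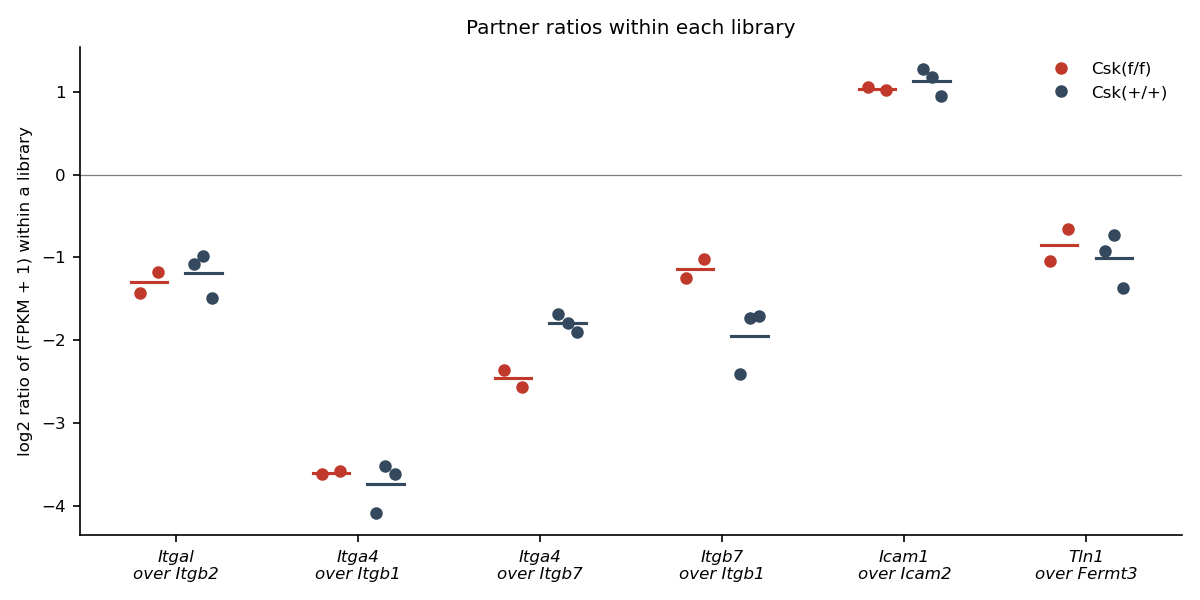
Log2 ratio of FPKM + 1 between partner genes within each library (y axis), for the 6 pairs on the x axis, with Csk(f/f)-labelled libraries at left in red and Csk(+/+) libraries at right in dark blue of each pair; horizontal bars are group means. The groups are apart for Itga4 over Itgb7 and Itgb7 over Itgb1, by -0.67 and 0.81, and overlap for the other 4 pairs.

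Itgb3 encodes the beta3 chain of the platelet and vitronectin receptor integrins. It had 7.91 and 11.1 FPKM in the Csk(f/f)-labelled libraries, against 8.32, 11.6 and 5.88 FPKM in the Csk(+/+) libraries. The groups overlapped over nearly their whole range. The log2 fold change was 0.15 ± 0.28 (SE), with a limma adjusted p of 0.755, and its sign turned without Csk(+/+) replicate 3 (-0.064) and without Csk(f/f) replicate 2 (-0.064). Its 2 alpha partners were lower per length than Itgb3 itself. Itgav, the alphaV chain, had 2.66 and 2.49 FPKM in the Csk(f/f)-labelled libraries, against 4.62, 3.69 and 2.51 FPKM in the Csk(+/+) libraries (log2 fold change -0.34 ± 0.24, SE, limma adjusted p = 0.413). Itga2b, the platelet alphaIIb chain, had 0.467 and 0.533 FPKM in the Csk(f/f)-labelled libraries, against 0.162, 0.364 and 0.0719 FPKM in the Csk(+/+) libraries, below the filter of the test. The list of 10 platelet and megakaryocyte genes summed to 1.87 to 2.33 FPKM in Csk(f/f)-labelled and 0.525 to 3.36 FPKM in Csk(+/+) libraries.

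Talin and kindlin-3 are the cytoplasmic proteins that bind beta chain tails and bring integrins to their active form, kindlin-3 being the blood cell member of its family. Tln1 had 148 and 186 FPKM in the Csk(f/f)-labelled libraries, against 110, 149 and 94.4 FPKM in the Csk(+/+) libraries. The groups overlapped, because Csk(+/+) replicate 2 was just above Csk(f/f) replicate 1. Its log2 fold change was 0.52 ± 0.21 (SE; 95% CI 0.036 to 1.00), with a limma adjusted p of 0.215.

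Fermt3 had 305 and 294 FPKM in the Csk(f/f)-labelled libraries, against 209.8, 247 and 247 FPKM in the Csk(+/+) libraries. The groups did not overlap, and the log2 fold change was 0.36 ± 0.14 (SE; 95% CI 0.040 to 0.67), with a limma adjusted p of 0.208. The ratio of Tln1 to Fermt3 was 0.485 and 0.632 in Csk(f/f)-labelled libraries and 0.524, 0.601 and 0.383 in the Csk(+/+) libraries, which overlapped. The related genes Tln2, Fermt1 and Fermt2 did not reach the filter of the test.

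The 10 differences ran with the GC content of the transcripts. The genes whose mean was below that of the Csk(+/+) libraries had the lowest GC content of the 10, Itga4 at 41.1% and Itgb1 at 44.8%, and the other 8 lay between 52.1% for Itgb3 and 58.0% for Itgb7. Across 10119 tested genes with a GC value, which are not independent replicates, log2 fold change and GC content had a Spearman rho of 0.71. When these genes were ordered by GC content and cut into 10 equal groups, the median log2 fold change of the lowest group was -0.47 and that of the highest group 0.32.

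**Figure D3:**
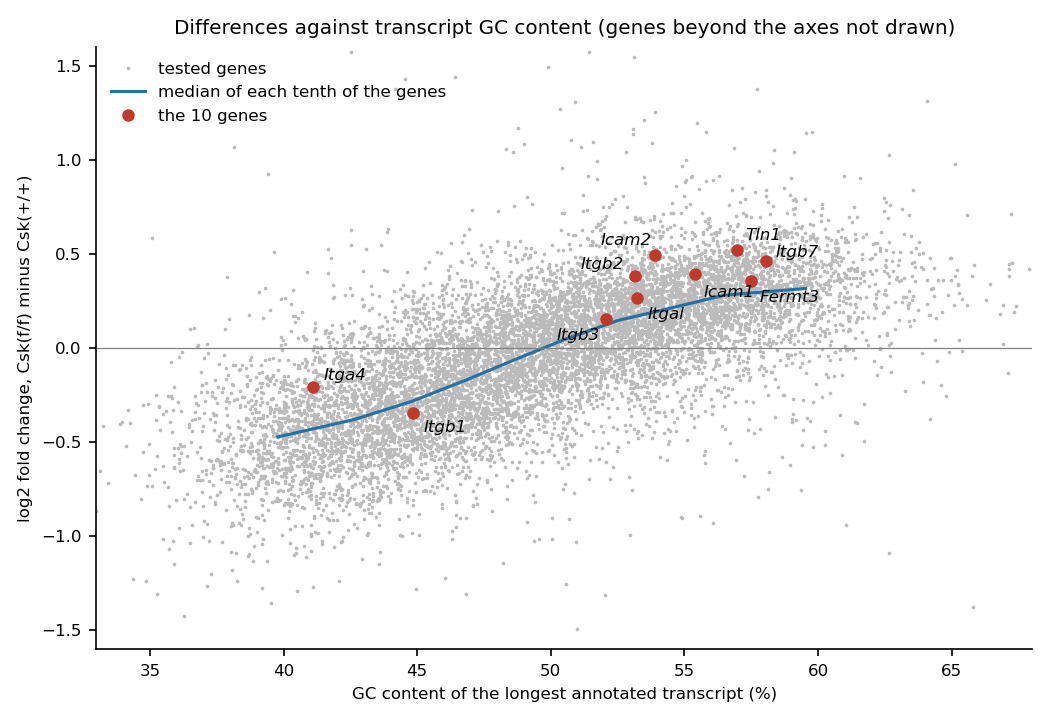
Log2 fold change, Csk(f/f)-labelled minus Csk(+/+) (y axis), against GC content of the longest annotated transcript in percent (x axis). Grey points are tested genes, the blue line joins the medians of 10 equal groups of genes ordered by GC content, and red points are the 10 named genes; Itga4 and Itgb1 lie at the low end, at -0.20 and -0.35, and Tln1 at 0.52 and 57.0% GC near the high end.

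Subtracting from each library its trend with GC content made 9 of the 10 differences smaller in size and left most of them positive. The median log2 fold change of the 10 genes was then 0.16, against 0.0010 for all genes tested, and 9 of the 10 were positive, with Itgb1 at -0.075. By limma 0 of the 10 passed the adjusted threshold, where 0.0395% of all genes tested passed as higher and 0.0395% as lower. At an unadjusted p under 0.05 there was 1 higher, Icam2, and 0 lower, where 4.89% and 5.08% of all genes tested were. Icam2 had a log2 fold change of 0.30 ± 0.12 (SE; 95% CI 0.025 to 0.58), an unadjusted p of 0.0368 and an adjusted p of 0.473. The groups did not overlap for Itgb2, Icam1 and Icam2, 3 of the 10. Over all genes tested, 14.6% had higher non-overlapping values and 13.9% lower ones. For Icam1 the groups were barely apart. On the log2 scale relative to its Csk(+/+) mean, it had 0.163 and 0.148 in Csk(f/f)-labelled libraries, against 0.145 in Csk(+/+) replicate 1. Itgb2 had 0.22 ± 0.12, Icam1 0.16 ± 0.13, Tln1 0.24 ± 0.17 and Fermt3 0.064 ± 0.16 (log2 fold change ± SE). The chains Itgb7, Itgal and Itgb3 were at 0.16 ± 0.17, 0.098 ± 0.17 and 0.033 ± 0.23 on the same scale.

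**Figure D4:**
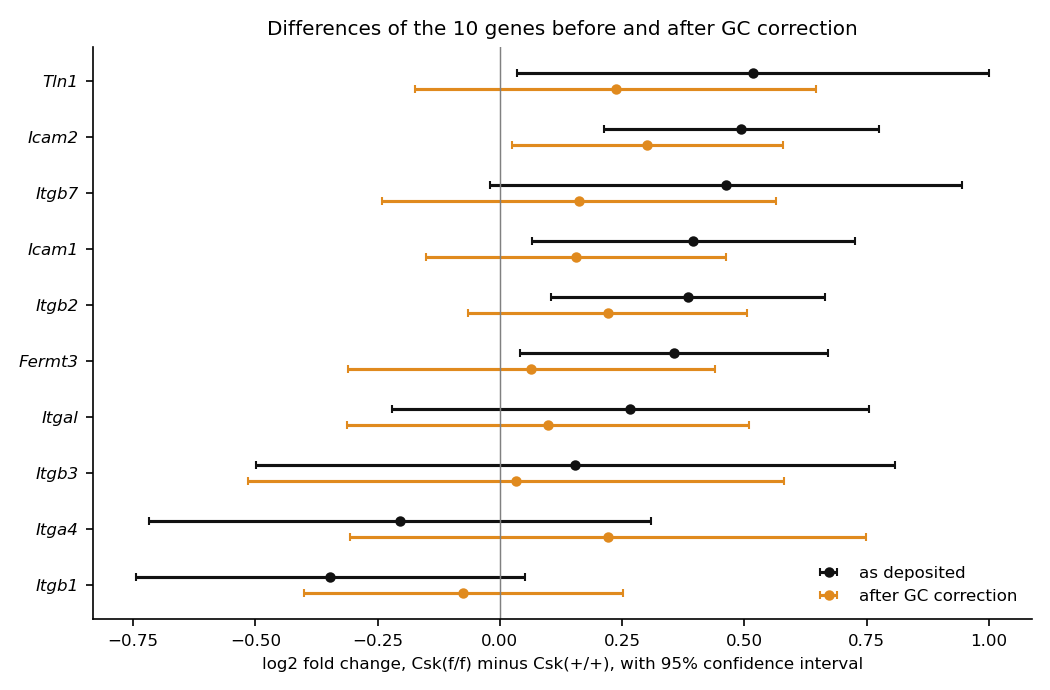
Log2 fold change, Csk(f/f)-labelled minus Csk(+/+) (x axis), with its 95% confidence interval by limma for the 10 genes (y axis), as deposited in black and after the GC correction in orange. As deposited the intervals of Tln1, Icam2, Icam1, Itgb2 and Fermt3 lie above 0; after the correction that of Icam2, 0.025 to 0.58, does.

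Single libraries carried part of the pattern. Taking each gene relative to its Csk(+/+) mean on the log2 scale, the median over the 10 genes was 0.36 and 0.41 in Csk(f/f)-labelled libraries and -0.0071, 0.19 and -0.17 in Csk(+/+) replicates 1, 2 and 3. Thus 5 of 10 genes were above the Csk(+/+) mean in Csk(+/+) replicate 1, 10 of 10 in replicate 2 and 1 of 10 in replicate 3. The erythroid sums of these replicates were 239, 1261 and 511 FPKM, and their part in the counts was not tested. The number of the 10 genes higher at an unadjusted p under 0.05 by limma was 5 with all libraries. It was 3, 6 and 4 without Csk(+/+) replicates 1, 2 and 3, and 1 gene was lower without replicate 3. The share of all genes is not given for these fits. The log2 fold changes of Itgb2, Icam1, Icam2, Tln1 and Fermt3 were 0.41, 0.42, 0.54, 0.68 and 0.33 without Csk(f/f) replicate 1. They were 0.37, 0.37, 0.45, 0.36 and 0.38 without Csk(f/f) replicate 2. With the lone remaining Csk(f/f)-labelled library these fits assume that it varies like the Csk(+/+) libraries.

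Beyond the 10 genes, few other integrin chains were expressed. Of 20 further alpha and beta chains, 18 had a mean under 1 FPKM in both groups, with 0.533 FPKM as their highest value in any library. The remaining chains were Itgav, given above, and Itga6, the laminin-binding alpha6 chain. Itga6 had 1.49 and 1.17 FPKM in the Csk(f/f)-labelled libraries, against 1.58, 1.59 and 1.26 FPKM in the Csk(+/+) libraries (log2 fold change -0.088 ± 0.19, SE, limma adjusted p = 0.797).

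Among 16 other ligands and counter-receptors of integrins, 4 were tested and 0 passed in either direction. By unadjusted p 1 was higher (Tgfb1) and 0 lower, against 8.07% and 13.6% of all genes tested. After the GC correction 1 was higher (Tgfb1) and 1 lower (Icam4), against 4.89% and 5.08%. Vcam1, the VLA-4 ligand of follicular dendritic cells, was at most 0.194 FPKM in any library. Tgfb1, whose latent peptide binds alphaV integrins, had 179 and 185 FPKM in the Csk(f/f)-labelled libraries, against 109, 143 and 123 FPKM in the Csk(+/+) libraries. Its log2 fold change was 0.54 ± 0.15 (SE, limma adjusted p = 0.155), and 0.40 ± 0.15 after the GC correction (unadjusted p = 0.0318, adjusted p = 0.460). Icam4, a further ICAM and named after its values were seen, had 0.769 and 0.951 FPKM in the Csk(f/f)-labelled libraries, against 1.07, 2.47 and 1.21 FPKM in the Csk(+/+) libraries, with no overlap. Its log2 fold change was -0.44 ± 0.26 (SE, limma adjusted p = 0.345) as deposited and -0.73 ± 0.22 (unadjusted p = 0.0136, adjusted p = 0.420) after the GC correction. Icam4 reached 1 FPKM only in Csk(+/+) libraries, so the filter admitted it through the group where it is higher. Its test and its lack of overlap are therefore no evidence of a difference. Cd47, which associates with beta3 integrins, had 39.8 and 34.4 FPKM, against 48.2, 46.1 and 39.7 FPKM in Csk(+/+) libraries (limma adjusted p = 0.313), and its log2 fold change turned from -0.26 as deposited to 0.12 after the GC correction.

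Of 30 genes listed for Rap1 and inside-out activation, 26 were tested and 0 passed in either direction, with 1 higher and 5 lower by unadjusted p (1 and 2 after the GC correction). Over all genes tested those shares were 8.07% higher and 13.6% lower as deposited, and 4.89% and 5.08% after the correction. Rap1a, a GTPase that signals to talin, had 59.0 and 44.6 FPKM in the Csk(f/f)-labelled libraries, against 126, 92.1 and 126 FPKM in the Csk(+/+) libraries. Its groups did not overlap, and its log2 fold change was -1.13 ± 0.19 (SE, limma adjusted p = 0.128) as deposited and -0.64 ± 0.14 (unadjusted p = 0.00314, adjusted p = 0.348) after the GC correction. The transcript of Rap1a had a GC content of 38.8%. The related Rap1b, named after its values were seen, had 111 and 105 FPKM, against 149, 136 and 126 FPKM in Csk(+/+) libraries. Its log2 fold change was -0.33 as deposited (limma adjusted p = 0.208) and turned to 0.13 after the GC correction. Rasgrp3, an exchange factor for Ras and Rap1 in B cells, had 24.5 and 19.1 FPKM, against 32.9, 32.8 and 34.1 FPKM in Csk(+/+) libraries (log2 fold change -0.60 ± 0.15, SE, limma adjusted p = 0.154, and -0.32 after the GC correction).

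Of 30 genes of the adhesion complex, 21 were tested and 0 passed, with 0 higher and 3 lower by unadjusted p, against 8.07% and 13.6% of all genes tested. The 3 were Arhgef6, Lims1 and the focal adhesion kinase gene Ptk2. After the GC correction there were also 0 higher and 3 lower, against 4.89% and 5.08%, but these were Zyx, Evl and Actn4. Ptk2, Zyx, Evl and Actn4 are named after their values were seen. The corrected log2 fold changes of Zyx, Evl and Actn4 were -0.42, -0.32 and -0.34, with adjusted p-values by limma of 0.485, 0.450 and 0.450. Arhgef6, a Rac exchange factor that binds parvins, had 23.9 and 22.2 FPKM in the Csk(f/f)-labelled libraries, against 30.3, 33.2 and 31.2 FPKM in the Csk(+/+) libraries. Lims1 (PINCH1), a partner of integrin-linked kinase, had 12.6 and 8.77 FPKM, against 16.4, 14.98 and 17.0 FPKM in Csk(+/+) libraries. The groups of both genes did not overlap, with adjusted p-values by limma of 0.169 for Arhgef6 and 0.180 for Lims1. Their log2 fold changes were -0.44 and -0.57 as deposited and -0.14 and -0.13 after the GC correction.

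The list of inactivators and tail binders had the largest median of the 6 lists around the 10 genes. Of 17 genes, 12 were tested and 0 passed, with 6 higher and 2 lower by unadjusted p, against 8.07% and 13.6% of all genes tested. After the GC correction 0 were higher and 0 lower, against 4.89% and 5.08%. Its median log2 fold change was 0.33 as deposited and 0.12 after the correction, beside -0.012 and 0.0010 for all genes tested. Dok1, an adaptor that competes with talin for beta chain tails, had 41.7 and 45.7 FPKM in the Csk(f/f)-labelled libraries, against 29.96, 33.02 and 33.7 FPKM in the Csk(+/+) libraries (log2 fold change 0.43 ± 0.13, SE, limma adjusted p = 0.171, and 0.13 after the GC correction). Ptpn12, the phosphatase PTP-PEST that acts on adhesion proteins, had 1.91 and 1.55 FPKM, against 3.39, 3.14 and 2.72 FPKM in Csk(+/+) libraries (log2 fold change -0.58 ± 0.19, SE, limma adjusted p = 0.179, and -0.29 after the GC correction).

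Of 20 other adhesion receptors of the B cell synapse, 18 were tested and 0 passed, with 1 higher and 4 lower by unadjusted p, against 8.07% and 13.6% of all genes tested, and 1 and 0 after the GC correction, against 4.89% and 5.08%. Cd24a, a heavily glycosylated surface protein of developing and activated B cells, had 224 and 198 FPKM in the Csk(f/f)-labelled libraries, against 328, 312 and 337 FPKM in the Csk(+/+) libraries. The tetraspanin gene Cd53 had 94.9 and 91.8 FPKM, against 133, 132 and 139.6 FPKM in Csk(+/+) libraries. Their log2 fold changes were -0.63 and -0.53 as deposited, with limma adjusted p-values of 0.152 and 0.154, and -0.27 and -0.065 after the GC correction, with 0.579 and 0.909.

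**Figure D5:**
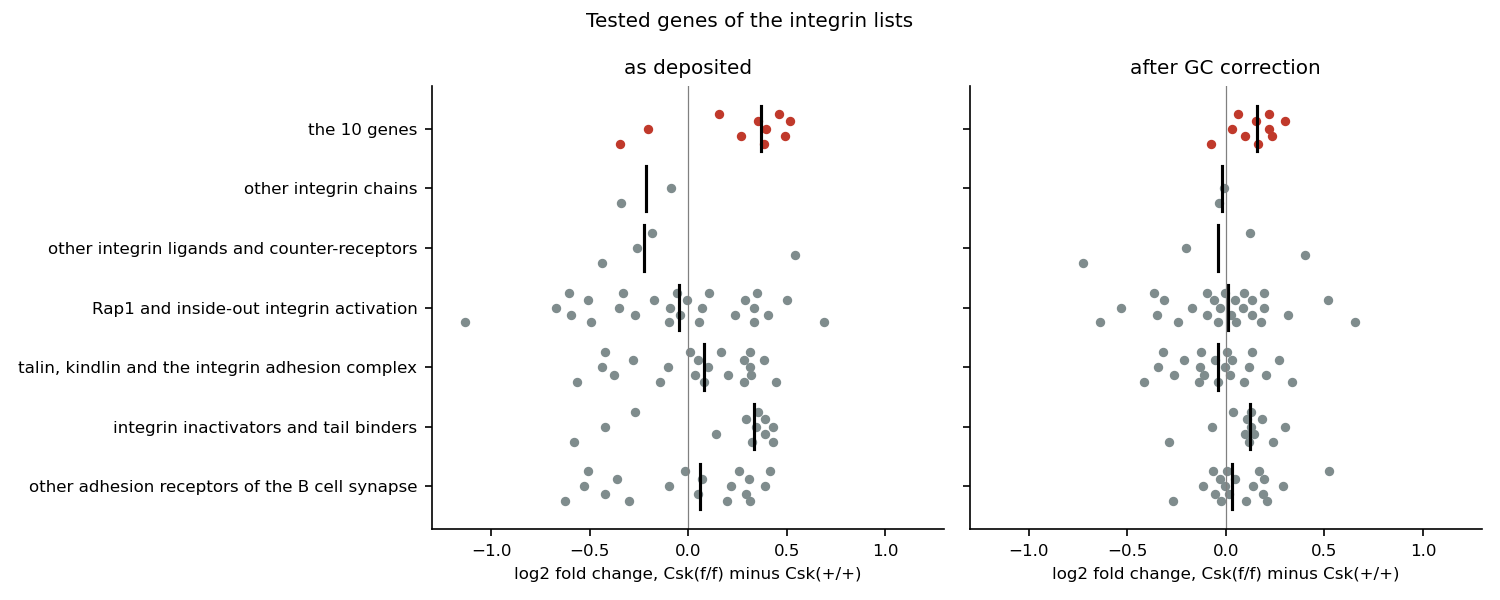
Log2 fold change, Csk(f/f)-labelled minus Csk(+/+) (x axis), of each tested gene of the 10 named genes (red) and of the 6 lists around them (grey), as deposited at left and after the GC correction at right. Black bars are medians; that of the 10 genes is 0.37 and 0.16, and that of the inactivators and tail binders 0.33 and 0.12.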

How the data were processed

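Total RNA of the sorted donor cells was made into NEBNext Ultra libraries, per the labels' protocols. Per the submitters' processing notes, the authors used TopHat2 2.0.8 and Cufflinks 2.1.1 with the mm9 genome. The deposited values are FPKM per gene, with 1 column per library. The annotation, strand setting and any scaling between libraries are not given in the sources used here. The last line, which repeats a header, was left out.

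Genes with at least 1 FPKM in at least 2 libraries were tested on log2(FPKM + 1), a scale that understates changes of low genes, with limma 3.58.1 (R 4.3.3, trended prior, two-sided). P-values were Benjamini-Hochberg adjusted over all 10242 genes, with a threshold of 0.05. The members and lists were chosen with earlier results of these data known. Named list genes are the 2 with the smallest p where none passed, and every further integrin chain at 1 FPKM or more in a group. Named outside this rule were Itgam, Itgax, Itga2b, Vcam1, Tln2, Fermt1 and Fermt2, and Icam4, Rap1b, Ptk2, Zyx, Evl and Actn4 after their values were seen. Lfng, a glycosyltransferase gene, was in the Rap1 list. Transcript GC content came from the longest GENCODE transcript (GRCm38) and covered 98.8% of tested genes. The correction subtracted from each library its lowess trend (span 0.3) against GC content. Depth was estimated from genes of at least 1500 nt. Fragment numbers cover counting error only. Alternatives covered pseudocount, filter, scaling, moderation, weights, the replicate number and each library left out. The pipeline was tested on simulated data. Samples that share a replicate number were treated as unpaired.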

Additional observations from a re-analysis of the deposited data

How the results depend on the processing

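The 22 alternatives changed pseudocount, filter, scaling, moderation, library weights, GC content, replicate number and the libraries included. Itgb2, Itgb7, Icam1, Icam2 and Tln1 (positive) and Itgb1 (negative) kept their sign, though not their size, in all 22. Fermt3 kept it in 21, Itgal in 19, Itgb3 in 15 and Itga4 in 14 of 21, since the filter at 5 FPKM left it untested. Of the 10 genes, 1 (Icam2) passed with library weights, and 0 passed in the 21 other alternatives. The depth limits Itga4 most, with about 144 fragments in its shallowest library. The cause of the changes below was not tested. Apart from the GC correction, the share of all genes at an unadjusted p under 0.05 is not given for the alternatives. Counts of the 10 genes at that level are therefore not read as a result about them.

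Without a filter, 2 genes in all were lower at the adjusted threshold. With library weights 194 genes were higher and 477 lower, 1 of the 10 genes was lower by unadjusted p, and the log2 fold change of Itgb3 was -0.024. Quantile normalization also gave 1 of the 10 lower by unadjusted p. Without a trended prior 3 of the 10 were higher by unadjusted p. With the GC correction 1 was higher by unadjusted p, and the log2 differences turned to 0.22 for Itga4, -0.14 for Csk and 0.060 for the ratio of Itga4 to Itgb7.

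The labels do not say that the replicate numbers pair the libraries. The deviations of same-numbered libraries from their group means correlated at -0.13 for replicate 1 and 0.11 for replicate 2. With 2 Csk(f/f)-labelled libraries their deviations mirror each other, so these correlations cannot decide whether the libraries are paired. With the replicate number as a block, which leaves Csk(+/+) replicate 3 without weight on the comparison, 110 genes were higher and 382 lower, 0 of the 10 among them at the adjusted threshold. There 1 of the 10 was lower by unadjusted p and Itgb3 was at -0.064. The block with the GC correction gave 81 genes higher and 69 lower, with 2 of the 10 higher by unadjusted p. Log2 fold changes were then -0.038 for Itgal, 0.15 for Itga4, -0.13 for Itgb3 and -0.074 for Csk.

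Leaving out each library in turn, with and without the GC correction, gave 0 to 128 genes higher and 5 to 283 lower, both upper values without Csk(+/+) replicate 3. In the fits that kept both Csk(f/f)-labelled libraries, 0 to 6 of the 10 genes were higher and 0 to 1 lower by unadjusted p. Over all libraries left out, log2 fold changes spanned -0.040 to 0.42 for Itgal, -0.28 to 0.41 for Itga4, -0.15 to 0.37 for Itgb3, -0.014 to 0.40 for Fermt3 and -0.19 to 0.23 for Csk. Among the genes that kept their sign, the GC-corrected values spanned 0.026 (without Csk(+/+) replicate 1) to 0.26 (without replicate 2) for Itgb7. They spanned 0.11 (without Csk(f/f) replicate 2) to 0.37 (without Csk(f/f) replicate 1) for Tln1, and -0.17 (without Csk(+/+) replicate 3) to -0.017 (without replicate 2) for Itgb1. The log2 ratio differences spanned -0.27 to 0.011 for Itgal over Itgb2, -0.030 to 0.25 for Itga4 over Itgb1 and -0.028 to 0.35 for Tln1 over Fermt3.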
